A study of Homo sapiens with 12 samples.

Results

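The comparison described here asks whether an MITF hairpin, switched on by doxycycline (Dox), changed the same genes in the same way in the melanoma lines MeWo and SkMel28. For each gene the change with Dox in SkMel28 was subtracted from the change with Dox in MeWo, both on log2(value + 1), and this difference is called the interaction. All 12616 genes of the deposited table entered, of the 12683 features it lists, and the 67 synthetic spike-in RNAs were set aside. A gene counted as expressed in 1 line only when its mean was under 1 in both groups of the other line, which put 11275 genes as measured in both lines, 548 as expressed in MeWo only, 726 in SkMel28 only and 67 under the limit in all 4 groups.

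MeWo and SkMel28 are established human cutaneous melanoma lines, and both carried the same kind of construct, a Dox-inducible short hairpin RNA against the mRNA of MITF. The 4 groups were MeWo at 0 µg/ml Dox, MeWo at 1 µg/ml Dox, SkMel28 at 0 µg/ml and SkMel28 at 1 µg/ml, each with 3 libraries collected after 8 days. The labels give EMEM as the medium of MeWo and RPMI as that of SkMel28, so that line and medium cannot be told apart; the study's methods give RPMI. No library of either line received Dox without the hairpin, so that effects of the drug itself and of the hairpin cannot be told apart. The labels number the libraries of a group but do not say whether they came from separate cultures, so p-values measure the spread between these libraries.

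MITF is a basic helix-loop-helix leucine zipper transcription factor that binds E-box sequences as a dimer and drives pigment genes and the identity of the melanocyte lineage. In melanoma, cells with high MITF tend to be differentiated and proliferative, and cells with low MITF tend to be dedifferentiated and invasive. Other regulators, such as SOX10 and TFAP2A, bind beside it at melanocyte genes.

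The libraries held between 2568187 and 3714608 reads over all features, and 1 read was worth a value of 0.278 to 0.389. Values are normalised to 1000000 effective reads. The 3 MeWo Dox libraries correlated less with each other, at means of 0.965, 0.968 and 0.973, than the other 9 libraries did within their groups, at 0.979 to 0.985. The first of them had the lowest estimated weight, 0.252, and the second the next lowest, 0.497, where the other 10 had 0.742 to 1.85. The melanocytic markers PMEL, MLANA, TYR and SOX10 were present in every library, PMEL between 2530 and 7694. Of 14 markers of keratinocytes, fibroblasts, leukocytes and endothelium, 11 including KRT5, KRT14, PTPRC and PECAM1 are not listed in the table, DCN stayed between 0 and 2.87, and LUM and CD68 were present in both lines. In such bulk libraries fewer cells of a type and less RNA per cell cannot be told apart.

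MITF, the target of the hairpin, was at 657, 663 and 708 in the MeWo control libraries, 451, 354 and 371 in the MeWo Dox libraries, 861, 739 and 792 in the SkMel28 controls and 575, 578 and 552 in SkMel28 with Dox. In both lines every Dox library was below every control library. The fall was 1.72-fold in MeWo, a change of -0.79 (SE 0.11, adjusted p = 6.49e-05), and 1.4-fold in SkMel28, a change of -0.49 (SE 0.11, adjusted p = 0.00705). The interaction of -0.31 (SE 0.15, adjusted p = 0.225) did not pass the threshold. It passed without the first MeWo Dox library, at -0.41, and with library weights, at -0.35. In 21 of 23 alternative fits it did not pass, and under scaling to the spike-ins its sign turned, to 0.07. All adjusted p-values are from limma with Benjamini-Hochberg adjustment over the 12616 genes, and the threshold for a call was an adjusted p of 0.05. Folds are ratios of group means, and gene positions are those of GENCODE release 44 on GRCh38, the build of the deposited files.

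The change with Dox was called in 16.7% of genes in MeWo, 8.58% higher and 8.12% lower, and in 10.9% in SkMel28, 5.88% higher and 5.04% lower. The interaction was called for 894 genes (7.09%), 468 with the change more positive in MeWo (3.71%) and 426 with it more negative (3.38%), and it reached at least 2-fold for 619. Called shares were 7.08% among genes measured in both lines, 9.49% among those expressed in MeWo only and 6.06% among those expressed in SkMel28 only. Over all genes the median interaction was -0.02, with 5% of genes below -1.03 and 5% above 1.00. Leaving out the first MeWo Dox library raised the calls to 3115, and all 894 were among them; the other 11 libraries left out in turn gave 449 to 748. The change was more positive in MeWo in 52.3% of the calls, in 63.0% by DESeq2 and in 89.5% with spike-in scaling, which moved the median of all genes by more than any other scaling.

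The 894 genes fell into 7 classes. The fit shared 1 estimate of the spread over the 4 groups, so the spread of the MeWo Dox libraries also entered the SkMel28 SEs. The SkMel28 change was called for 1378 genes, and for 2042 without the first MeWo Dox library. A change called in 1 line only does not show that the other line did not respond. In 393 only the MeWo change was called, 228 higher and 165 lower with Dox, and in 279 of these the SkMel28 change had the other sign without being called. In 212 only the SkMel28 change was called, 110 higher and 102 lower. Both changes were called in the same direction in 56 genes, of which 46 changed more in MeWo and 10 more in SkMel28. In 48 genes both changes were called in opposite directions, which is 0.426% of the genes measured in both lines. Another 52 were expressed in MeWo only, 44 in SkMel28 only, and in 89 neither change was called alone.

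**Figure D1:**
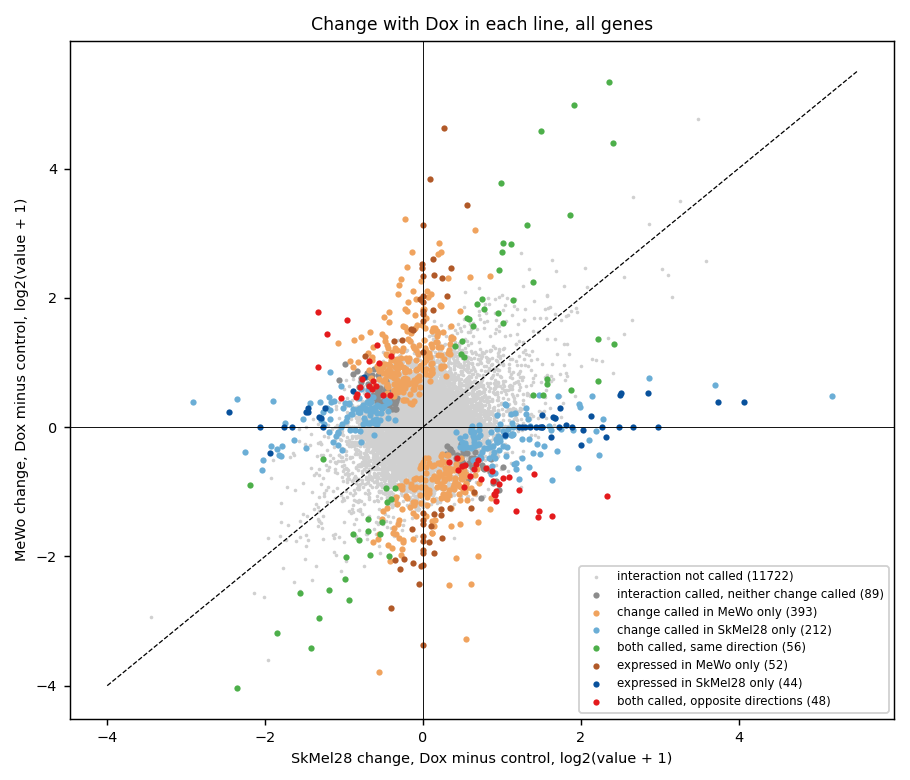
Change with Dox in SkMel28 (x axis) against that in MeWo (y axis), both on log2(value + 1), for all 12616 genes, 1 point per gene coloured by class. Points on the dashed line changed equally; the 48 red genes lie in the upper left and lower right quadrants, and the 52 and 44 genes expressed in 1 line only lie along the axes.

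Opposite responses were led by 6 genes that rose in MeWo and fell in SkMel28 and 6 that did the reverse. Of the 48, 20 rose in MeWo and 28 fell. In 45 of the 48 the control and Dox libraries did not overlap in either line, where this held for 11.3% of all genes; since both changes were called by rule, that count describes the class and supports nothing. Genes named below were also picked by their calls, so a lack of overlap between their libraries describes them and supports nothing. For the 20, MeWo changes lay between 0.45 and 1.78 and SkMel28 changes between -1.33 and -0.41. For the 28 they lay between -1.39 and -0.48 in MeWo and between 0.33 and 2.33 in SkMel28. Of the 48, 11 were opposite in all 23 alternative fits: FXYD3, ST3GAL1, RALB, FZD7, HDAC9, IGFBP3, SPP1 and TFAP2A, and, named after their values were seen, ZNF697, TPCN2 and DBI. Under scaling to the spike-ins 25 of the 48 remained opposite.

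FXYD3 (chr19:35115823-35124324), a small membrane protein that regulates the sodium-potassium pump, was at 13.5, 8.94 and 9.07 in the MeWo control libraries, 39.3, 34.9 and 40.0 in the MeWo Dox libraries, 41.8, 43.8 and 46.8 in the SkMel28 controls and 14.2, 15.7 and 21.5 in SkMel28 with Dox. The MeWo Dox libraries were close to the SkMel28 controls, and the SkMel28 Dox libraries came near the MeWo controls, with no overlap within either line. It was 3.62-fold higher in MeWo and 2.57-fold lower in SkMel28, and the interaction was 3.12 (SE 0.27, adjusted p = 4.99e-06). The level in SkMel28 was 4.20 times that in MeWo without Dox and 0.451 times with it.

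TMSB4X (chrX:12975110-12977227) encodes thymosin beta-4, a peptide that holds actin monomers; it has near-identical copies, so its reads are uncertain. Its values were 101.4, 78.5 and 77.1 in the MeWo control libraries, 124, 301 and 337 in the MeWo Dox libraries, 459, 998 and 664 in the SkMel28 controls and 307, 292 and 271 in SkMel28 with Dox. In MeWo the first Dox library, at 124, lay near the controls and the other 2 well above them, and the SkMel28 controls were spread widely. The interaction was 2.66 (SE 0.41, adjusted p = 0.00112), and 3.11 without the first MeWo Dox library; the fall in SkMel28 (adjusted p = 0.0114) was not called without the second SkMel28 control.

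ST3GAL1 (chr8:133454848-133571926), a sialyltransferase that caps O-linked sugar chains, was at 40.0, 31.1 and 29.5 in the MeWo control libraries, 89.4, 119 and 116 in the MeWo Dox libraries, 153, 146 and 159 in the SkMel28 controls and 86.1, 66.8 and 82.8 in SkMel28 with Dox. All MeWo Dox libraries were above and all SkMel28 Dox libraries below their controls. With 3.22-fold higher levels in MeWo and 1.94-fold lower levels in SkMel28, it had an interaction of 2.62 (SE 0.21, adjusted p = 3.88e-06). RALB (chr2:120240064-120294710), a Ras-like small GTPase, was at 79.5, 50.5 and 65.4 in the MeWo control libraries, 82.0, 155 and 147 in the MeWo Dox libraries, 231, 307 and 262 in the SkMel28 controls and 108, 103 and 104 in SkMel28 with Dox. The first MeWo Dox library, at 82.0, barely passed the highest control, while the SkMel28 groups were far apart. RALB was 2.54-fold lower in SkMel28 and 1.97-fold higher in MeWo, an interaction of 2.26 (SE 0.29, adjusted p = 0.00018) that was 2.55 without that library.

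APBB1 (chr11:6395125-6419414), an adaptor that binds the amyloid precursor protein, was at 29.1, 23.7 and 22.3 in the MeWo control libraries, 30.0, 55.0 and 45.7 in the MeWo Dox libraries, 39.5, 38.4 and 40.2 in the SkMel28 controls and 18.7, 28.7 and 21.5 in SkMel28 with Dox. The groups of each line were separate, but by a narrow gap in MeWo. Its interaction was 1.52 (SE 0.29, adjusted p = 0.0049); 1 of the 2 changes was no longer called without the second or the third library of either MeWo group, without the first or the third SkMel28 Dox library or without any 1 SkMel28 control, and the interaction was called each time. PFKFB4 (chr3:48517684-48562015), an enzyme that sets the level of the glycolytic activator fructose 2,6-bisphosphate, was at 47.8, 55.6 and 43.1 in the MeWo control libraries, 93.8, 105 and 99.2 in the MeWo Dox libraries, 30.1, 22.8 and 36.4 in the SkMel28 controls and 18.1, 23.4 and 13.3 in SkMel28 with Dox. MeWo rose without overlap, and in SkMel28 1 Dox library lay within the controls. The interaction was 1.70 (SE 0.28, adjusted p = 0.00152), and the SkMel28 fall (adjusted p = 0.032) was not called without the first or the third library of either SkMel28 group. PFKFB4 overlaps UCN2 on the same strand, so reads in the overlap cannot be told apart.

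Among genes that fell in MeWo and rose in SkMel28, FZD7 (chr2:202033855-202038441), a receptor for Wnt ligands, was at 22.2, 28.4 and 30.4 in the MeWo control libraries, 18.8, 5.31 and 8.47 in the MeWo Dox libraries, 26.5, 32.0 and 20.3 in the SkMel28 controls and 86.1, 81.2 and 55.3 in SkMel28 with Dox. Both lines started from the same range, and with Dox they moved apart until every SkMel28 library was far above every MeWo library. It was 2.48-fold lower in MeWo and 2.82-fold higher in SkMel28, and the interaction was -2.85 (SE 0.44, adjusted p = 0.00101). HDAC9 (chr7:18086949-19002416), a class IIa histone deacetylase, was at 10.9, 9.71 and 11.98 in the MeWo control libraries, 4.47, 1.90 and 5.08 in the MeWo Dox libraries, 8.35, 6.35 and 7.28 in the SkMel28 controls and 29.7, 23.1 and 22.4 in SkMel28 with Dox. The MeWo controls were above the SkMel28 controls, and with Dox the order was the reverse. The interaction was -3.01 (SE 0.37, adjusted p = 0.000165), with a change of -1.37 in MeWo and 1.64 in SkMel28.

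IGFBP3 (chr7:45912245-45921874), a secreted protein that binds insulin-like growth factors, was at 8.06, 9.71 and 7.77 in the MeWo control libraries, 4.15, 3.79 and 1.35 in the MeWo Dox libraries, 17.5, 13.3 and 16.1 in the SkMel28 controls and 46.6, 42.8 and 45.3 in SkMel28 with Dox. No library of a Dox group overlapped its controls. The gap between the lines went from 1.84-fold to 14.5-fold, SkMel28 being the higher, and the interaction was -2.76 (SE 0.37, adjusted p = 0.000263). SPP1 (chr4:87975667-87983532), the secreted matrix protein osteopontin, was at 23.9, 25.3 and 28.8 in the MeWo control libraries, 15.6, 9.48 and 9.48 in the MeWo Dox libraries, 41.2, 55.2 and 44.8 in the SkMel28 controls and 100.6, 99.3 and 72.5 in SkMel28 with Dox. Again the groups were separate in both lines, with the first MeWo Dox library nearest to its controls. SPP1 was 2.25-fold lower in MeWo and 1.93-fold higher in SkMel28, an interaction of -2.07 (SE 0.28, adjusted p = 0.00029).

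XYLT1 (chr16:17101769-17470960), which adds the first sugar of proteoglycan side chains, was at 2.02, 1.94 and 1.30 in the MeWo control libraries, 0.319, 0 and 0.677 in the MeWo Dox libraries, 1.39, 3.17 and 2.68 in the SkMel28 controls and 16.03, 13.0 and 18.4 in SkMel28 with Dox. MeWo levels were low in both groups, with 3 reads in all in the Dox libraries, and the SkMel28 Dox libraries stood far above their controls. The MeWo fall was a ratio of summed reads of 5.09 (95% counting interval 1.46 to 27.3) and the SkMel28 rise 6.55-fold, for an interaction of -3.39 (SE 0.41, adjusted p = 0.000136); the MeWo fall (adjusted p = 0.0179) was not called by DESeq2 or without the second MeWo Dox library or the first or second MeWo control. RGS2 (chr1:192809039-192812275), a brake on signalling by G proteins, was at 9.50, 8.55 and 8.42 in the MeWo control libraries, 5.75, 2.65 and 4.06 in the MeWo Dox libraries, 7.52, 11.7 and 12.3 in the SkMel28 controls and 25.5, 26.1 and 24.5 in SkMel28 with Dox. SkMel28 rose to a narrow range, and in MeWo the first Dox library stayed closest to the controls. Its interaction was -2.20 (SE 0.35, adjusted p = 0.0013), and the MeWo fall (adjusted p = 0.0118) was not called without the second MeWo Dox library or with spike-in scaling.

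**Figure D2:**
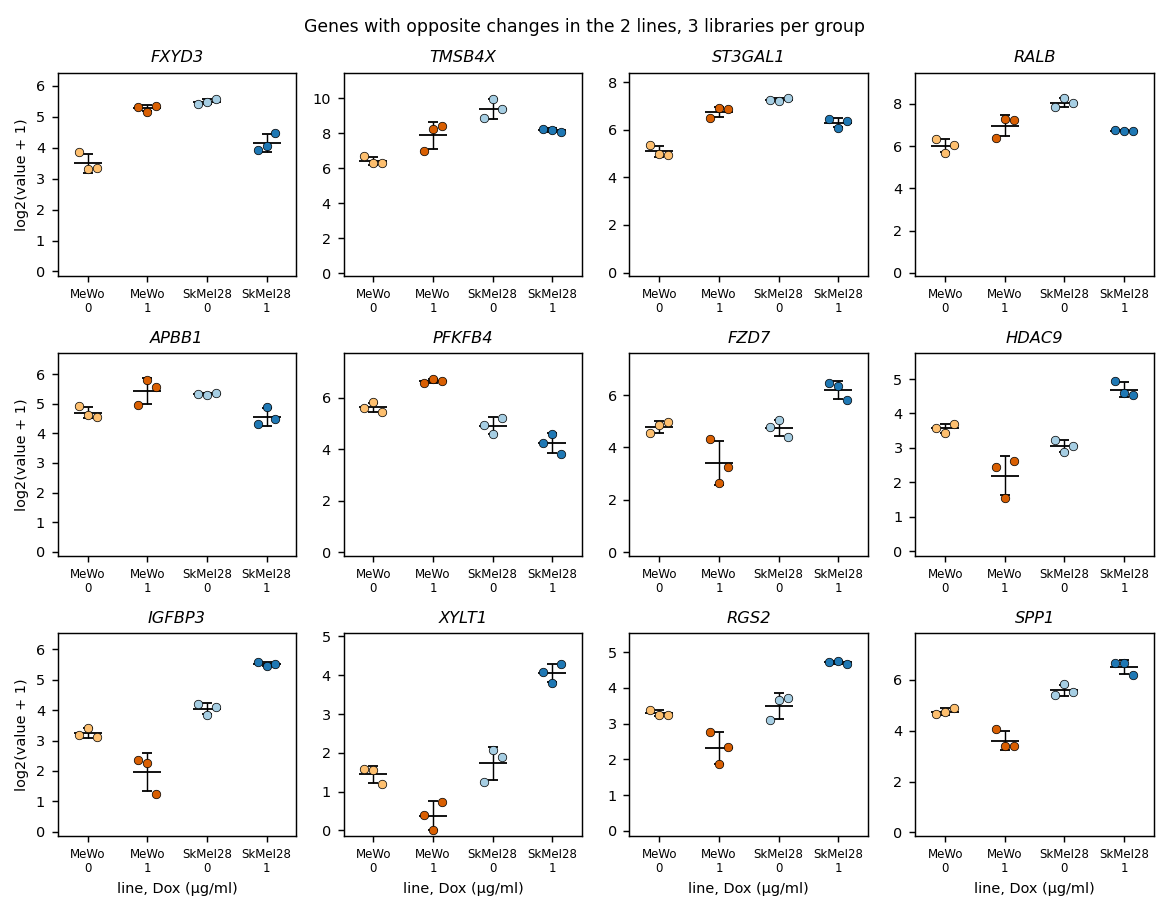
Values of the 12 named genes with opposite changes, as log2(value + 1) on the y axis; each point is 1 of 3 libraries of a group at 0 or 1 µg/ml Dox, the bar is the mean and the whiskers are 1 SD. From FXYD3 to PFKFB4 the MeWo points rise and the SkMel28 points fall, from FZD7 to SPP1 the reverse; the first MeWo Dox point often lies nearest to its controls.

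MITF binds the E-box CACGTG and, less strongly, CATGTG, and windows of 250 bases before to 50 after RefSeq start sites were searched for both, on both strands (CATGTG also reads CACATG). Of 35116 windows in the RefSeq table (GRCh38.p14), 7.26% held CACGTG and 11.1% CATGTG. For the 43 genes named by class, 42 windows of 29 genes were found, of which 1 held CACGTG (2.38%) and 5 CATGTG (11.9%), and none of the 3 MITF windows held either. The 3 windows shown were picked, after their letters were seen, as named genes that changed in both lines, have 1 listed window and hold a motif, which is in capitals.
FXYD3, chr19:35117750-35118049, plus strand: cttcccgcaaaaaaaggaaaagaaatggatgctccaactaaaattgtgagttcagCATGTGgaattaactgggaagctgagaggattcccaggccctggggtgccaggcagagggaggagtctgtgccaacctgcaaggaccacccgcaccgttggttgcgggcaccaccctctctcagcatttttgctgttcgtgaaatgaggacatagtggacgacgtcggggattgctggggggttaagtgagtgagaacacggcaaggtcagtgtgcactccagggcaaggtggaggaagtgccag
KCNN4, chr19:43780924-43781223, minus strand: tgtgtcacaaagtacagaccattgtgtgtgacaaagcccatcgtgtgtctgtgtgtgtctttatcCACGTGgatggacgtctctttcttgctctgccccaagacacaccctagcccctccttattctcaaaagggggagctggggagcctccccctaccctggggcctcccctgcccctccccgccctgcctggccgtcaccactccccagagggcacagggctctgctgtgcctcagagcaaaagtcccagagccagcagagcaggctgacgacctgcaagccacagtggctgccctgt
TCN1, chr11:59866438-59866737, minus strand: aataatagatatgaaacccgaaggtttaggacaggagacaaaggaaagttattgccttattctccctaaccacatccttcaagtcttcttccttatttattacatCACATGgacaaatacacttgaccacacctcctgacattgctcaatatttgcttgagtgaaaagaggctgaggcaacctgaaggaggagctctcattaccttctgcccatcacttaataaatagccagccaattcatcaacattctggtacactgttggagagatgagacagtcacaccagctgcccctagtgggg
The FXYD3 and TCN1 windows each held 1 CATGTG and the KCNN4 window 1 CACGTG. Such a match is a description of letters, and binding was not measured in these libraries.

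Changes called in MeWo only were found for a beta tubulin, a regulator of NF-kappaB and a protease, among others. TUBB2B (chr6:3223324-3231730), whose close copy TUBB2A makes its reads uncertain, was at 9.21, 6.60 and 5.18 in the MeWo control libraries, 44.05, 95.9 and 88.1 in the MeWo Dox libraries, 2.78, 4.13 and 6.13 in the SkMel28 controls and 3.27, 4.01 and 3.02 in SkMel28 with Dox. Every MeWo Dox library was several times the highest control, and the SkMel28 groups overlapped. It was 10.9-fold higher in MeWo, with an interaction of 3.45 (SE 0.43, adjusted p = 0.000166). BCL3 (chr19:44747705-44760044), a coactivator of NF-kappaB, was at 1.15, 1.94 and 1.94 in the MeWo control libraries, 9.26, 21.2 and 21.7 in the MeWo Dox libraries, 4.73, 7.30 and 5.75 in the SkMel28 controls and 3.27, 5.35 and 7.86 in SkMel28 with Dox. SkMel28 had the higher level without Dox and MeWo with it. BCL3 was 10.4-fold higher in MeWo, and the interaction was 2.85 (SE 0.47, adjusted p = 0.00156). The long noncoding RNA LINC01239 (chr9:22646200-22824213) was at 0, 0.389 and 0 in the MeWo control libraries, 3.51, 7.20 and 5.42 in the MeWo Dox libraries, 35.9, 30.8 and 36.0 in the SkMel28 controls and 30.3, 30.1 and 28.1 in SkMel28 with Dox. MeWo controls held 1 read in all. SkMel28 was high in both groups, with every Dox library below its controls but the change not called. The interaction of LINC01239 was 2.68 (SE 0.35, adjusted p = 0.000213). For MeWo alone the ratio of summed reads was 48.2 (95% counting interval 8.22 to 1940.0).

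Of the falls, FAM69C was at 63.1, 49.3 and 64.5 in the MeWo control libraries, 6.70, 4.55 and 4.40 in the MeWo Dox libraries, 8.07, 7.93 and 8.81 in the SkMel28 controls and 11.3, 12.7 and 13.6 in SkMel28 with Dox. MeWo controls were the highest group, and with Dox MeWo dropped below SkMel28. It was 11.3-fold lower in MeWo, and its interaction was -3.82 (SE 0.29, adjusted p = 2.24e-06). CTSK (chr1:150794880-150809577), a lysosomal protease that cuts collagen, was at 269, 274 and 290.2 in the MeWo control libraries, 33.5, 14.4 and 14.2 in the MeWo Dox libraries, 141, 105 and 117 in the SkMel28 controls and 84.3, 86.2 and 73.7 in SkMel28 with Dox. The libraries did not overlap in either line, although the SkMel28 change of -0.56 (SE 0.23, adjusted p = 0.135) was not called; without the first MeWo Dox library it was (-0.56, adjusted p = 0.00188). MeWo fell 13.4-fold, and the interaction was -3.23 (SE 0.32, adjusted p = 1.66e-05). DNER (chr2:229357629-229714555), a transmembrane protein with EGF repeats, was at 309.5, 296 and 273 in the MeWo control libraries, 115, 41.3 and 31.5 in the MeWo Dox libraries, 8.91, 6.66 and 13.0 in the SkMel28 controls and 16.03, 12.7 and 15.4 in SkMel28 with Dox. The first MeWo Dox library lay between its controls and the other 2, and DNER was low in SkMel28 throughout. The interaction was -3.05 (SE 0.46, adjusted p = 0.000928), and -3.60 without that library, when the SkMel28 change was also called (0.62, adjusted p = 0.0266).

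In SkMel28 only, ANGPTL7 (chr1:11189355-11195981), a secreted angiopoietin-like protein, was at 0, 1.55 and 0.324 in the MeWo control libraries, 0.958, 0.758 and 1.69 in the MeWo Dox libraries, 0.835, 2.54 and 2.30 in the SkMel28 controls and 104, 104 and 93.1 in SkMel28 with Dox. MeWo stayed within a few reads in both groups. The SkMel28 rise was 53.2-fold and the interaction, -4.70 (SE 0.48, adjusted p = 1.90e-05), was the most negative of the 894. ANGPTL7 lies opposite MTOR on the other strand. FGFBP2 (chr4:15960245-15969309), of the family of fibroblast growth factor binding proteins, was at 4.32, 1.17 and 4.53 in the MeWo control libraries, 8.62, 3.41 and 4.74 in the MeWo Dox libraries, 6.68, 6.03 and 3.83 in the SkMel28 controls and 83.4, 83.9 and 79.8 in SkMel28 with Dox. SkMel28 with Dox stood apart from the other 3 groups, which overlapped. It rose 14.9-fold in SkMel28, with an interaction of -3.06 (SE 0.48, adjusted p = 0.00124); it overlaps PROM1 on the same strand. MGLL (chr3:127689062-128052190), the lipase of monoacylglycerols, was at 0.576, 3.497 and 0.972 in the MeWo control libraries, 1.28, 1.52 and 0 in the MeWo Dox libraries, 2.51, 1.27 and 3.45 in the SkMel28 controls and 16.9, 10.0 and 17.5 in SkMel28 with Dox. MeWo was low and scattered, and SkMel28 rose without overlap. Its interaction of -2.66 (SE 0.59, adjusted p = 0.0126) was not called at a pseudocount of 0.1.

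Named falls in SkMel28 only included small noncoding RNAs of the SNAR family, whose near-identical copies make single members uncertain. SNAR-E was at 12.1, 11.3 and 14.9 in the MeWo control libraries, 9.58, 48.1 and 11.2 in the MeWo Dox libraries, 1318, 1652 and 812 in the SkMel28 controls and 227, 171 and 339 in SkMel28 with Dox. It was abundant in SkMel28 controls and fell 5.13-fold, while in MeWo 1 of 3 Dox libraries was high. SNAR-C4 was at 1.15, 1.17 and 3.89 in the MeWo control libraries, 1.28, 7.20 and 1.69 in the MeWo Dox libraries, 89.9, 102 and 52.5 in the SkMel28 controls and 7.42, 10.0 and 11.8 in SkMel28 with Dox. The same second MeWo Dox library was the highest of its line. The interactions were 2.79 (SE 0.58, adjusted p = 0.00868) for SNAR-E and 3.29 (SE 0.60, adjusted p = 0.0033) for SNAR-C4. UCN2 (chr3:48561718-48563781), a peptide of the corticotropin-releasing family, was at 24.2, 20.2 and 23.3 in the MeWo control libraries, 28.1, 32.2 and 29.8 in the MeWo Dox libraries, 120.0, 126 and 146 in the SkMel28 controls and 32.95, 32.1 and 37.2 in SkMel28 with Dox. The lines differed widely without Dox and met with it, from a SkMel28 to MeWo ratio of 5.78 to 1.13. UCN2 fell 3.83-fold in SkMel28, the MeWo change of 0.40 (SE 0.14, adjusted p = 0.0626) was not called, and the interaction was 2.30 (SE 0.20, adjusted p = 4.99e-06). Without the first MeWo Dox library the MeWo change was called (0.44, adjusted p = 0.0249).

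Genes that changed in the same direction differed in size. KCNN4 (chr19:43766533-43780976), a calcium-activated potassium channel, was at 0.864, 0 and 0 in the MeWo control libraries, 16.6, 37.9 and 35.9 in the MeWo Dox libraries, 3.34, 2.86 and 6.90 in the SkMel28 controls and 13.1, 11.0 and 16.6 in SkMel28 with Dox. MeWo went from 3 reads in all to a mean above that of SkMel28, with the first Dox library level with the highest SkMel28 Dox library. The ratio of summed MeWo reads was 90 (95% counting interval 30.5 to 439) against a 3.11-fold rise in SkMel28, and the interaction was 3.08 (SE 0.50, adjusted p = 0.00152); the SkMel28 rise was not called at a pseudocount of 0.1, without the third SkMel28 Dox library or without the second SkMel28 control. SERPINA3 (chr14:94612384-94624055), a secreted inhibitor of serine proteases, was at 0, 0 and 0.324 in the MeWo control libraries, 37.3, 39.0 and 26.1 in the MeWo Dox libraries, 3.62, 1.59 and 3.45 in the SkMel28 controls and 11.3, 15.04 and 13.6 in SkMel28 with Dox. Here too MeWo started with 1 read in all and ended above SkMel28. The ratio was 311 (95% counting interval 55.4 to 12300.0) in MeWo and the rise 4.61-fold in SkMel28, with an interaction of 3.06 (SE 0.39, adjusted p = 0.00018). TCN1 (chr11:59852800-59866489), a vitamin B12 binding protein, was at 2.02, 2.33 and 3.89 in the MeWo control libraries, 186, 127 and 133 in the MeWo Dox libraries, 1.11, 2.86 and 0 in the SkMel28 controls and 8.02, 8.69 and 11.5 in SkMel28 with Dox. Both lines started low, and all Dox libraries were above their controls. It rose 54.2-fold and 7.1-fold, and its interaction of 2.98 (SE 0.51, adjusted p = 0.00221) was not called at a pseudocount of 0.1.

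The larger change was in SkMel28 for SYNM (chr15:99098217-99135593), an intermediate filament protein, at 7.49, 9.71 and 9.39 in the MeWo control libraries, 11.5, 16.7 and 17.6 in the MeWo Dox libraries, 41.8, 52.99 and 48.3 in the SkMel28 controls and 259.8, 228 and 191 in SkMel28 with Dox. SYNM rose in both lines without overlap. The rise was 4.74-fold in SkMel28 and 1.72-fold in MeWo, an interaction of -1.51 (SE 0.26, adjusted p = 0.00198); the MeWo rise was not called without the third MeWo Dox library or the first MeWo control. JUN (chr1:58776845-58784048), a subunit of the AP-1 transcription factor, was at 207, 194 and 206 in the MeWo control libraries, 241, 340.3 and 338 in the MeWo Dox libraries, 24.2, 40.0 and 29.1 in the SkMel28 controls and 115, 115 and 112 in SkMel28 with Dox. MeWo was the higher line throughout, and the gap narrowed with Dox. The interaction was -1.29 (SE 0.23, adjusted p = 0.00269), while the MeWo rise (adjusted p = 0.0208) was not called without the second or the third MeWo Dox library or any 1 MeWo control. HLA-C (chr6:31268749-31272130), a class I antigen-presenting molecule with close relatives that share reads, was at 20.2, 31.9 and 22.7 in the MeWo control libraries, 19.2, 12.9 and 8.13 in the MeWo Dox libraries, 346, 370.3 and 390.1 in the SkMel28 controls and 73.6, 83.6 and 81.9 in SkMel28 with Dox. It fell in both lines, 4.63-fold in SkMel28 and 1.86-fold in MeWo, and the MeWo fall was not called with spike-in scaling or without the third MeWo Dox library or the second MeWo control. Its interaction of 1.30 (SE 0.31, adjusted p = 0.0183) was not called without the first or the third MeWo control, the first SkMel28 Dox library or the third SkMel28 control, at 1.17 to 1.26.

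Genes expressed in 1 line only form a class of their own, since the interaction there is close to the change in the line that expresses the gene. Of the 52 expressed in MeWo, 25 rose and 27 fell, and in 40 all 6 SkMel28 libraries held 3 reads or fewer. Of the 44 expressed in SkMel28, 30 had a positive and 14 a negative SkMel28 change, 43 of them called, and in 37 all 6 MeWo libraries held 3 reads or fewer. On whole reads edgeR called the interaction for 4 of the 96. DESeq2 gave an adjusted p to 32 of the 96 and called 2 of these, and it gave none to 64. Within the expressing line edgeR called the change for 51 of 52 and 43 of 44. The limit of 1 divides a continuous range: ENPP2 at 0.9504 and LOC643072 at 0.970 were just inside it and INHBA at 1.04 and DENND2D at 1.05 just outside.

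CYP1B1 (chr2:38066973-38109902), a cytochrome P450 and a standard target of the aryl hydrocarbon receptor, was at 12.1, 7.77 and 13.0 in the MeWo control libraries, 341, 254 and 274 in the MeWo Dox libraries, 0, 0.317 and 0.383 in the SkMel28 controls and 0, 1.00 and 0.604 in SkMel28 with Dox. SkMel28 held at most 3 reads per library. CYP1B1 rose 26.5-fold in MeWo, and the interaction of 4.35 (SE 0.40, adjusted p = 7.51e-06) was not called by edgeR or DESeq2. MYRF (chr11:61752636-61788518), a transcription factor of myelin genes, was at 0.864, 0.777 and 1.30 in the MeWo control libraries, 31.6, 27.3 and 22.7 in the MeWo Dox libraries, 0.278, 0.317 and 0.383 in the SkMel28 controls and 0.297, 0.334 and 0.604 in SkMel28 with Dox. It was near the floor in MeWo controls and high in every MeWo Dox library. The rise was 27.8-fold and the interaction 3.75 (SE 0.35, adjusted p = 1.08e-05), called in all 23 alternative fits. TLE4 (chr9:79571773-79726882), a corepressor of the Groucho family, was at 4.03, 3.11 and 5.83 in the MeWo control libraries, 33.2, 28.8 and 29.5 in the MeWo Dox libraries, 0, 0.952 and 0.766 in the SkMel28 controls and 0, 1.34 and 0.907 in SkMel28 with Dox. No MeWo Dox library overlapped the controls. The 7.05-fold rise gave an interaction of 2.47 (SE 0.48, adjusted p = 0.0049), not called by edgeR, DESeq2 or at a pseudocount of 0.1.

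CFAP61 (chr20:20052514-20360703), a protein of cilia and flagella, was at 18.4, 19.0 and 21.1 in the MeWo control libraries, 1.60, 4.93 and 0.677 in the MeWo Dox libraries, 0.835, 0.635 and 0 in the SkMel28 controls and 0.297, 0 and 0 in SkMel28 with Dox. ZNF749 (chr19:57435325-57447101), a zinc finger protein, was at 11.2, 11.3 and 8.74 in the MeWo control libraries, 0.958, 1.14 and 3.05 in the MeWo Dox libraries, 0.278, 0.635 and 0.383 in the SkMel28 controls and 0.297, 0.334 and 0.604 in SkMel28 with Dox. Both fell in MeWo without overlap, 8.13-fold and 6.07-fold, from controls that were far above SkMel28. The interactions were -2.39 (SE 0.53, adjusted p = 0.0125) for CFAP61, not called by edgeR, DESeq2 or at a pseudocount of 0.1, and -2.12 (SE 0.42, adjusted p = 0.00552) for ZNF749, not called by edgeR and without an adjusted p from DESeq2. LINC00645 (chr14:27612577-27639636), a long noncoding RNA, was at 14.7, 17.1 and 12.3 in the MeWo control libraries, 1.92, 3.79 and 2.71 in the MeWo Dox libraries, 0.557, 1.27 and 0 in the SkMel28 controls and 0.297, 0 and 0.302 in SkMel28 with Dox. It fell 5.24-fold in MeWo. Its interaction of -1.71 (SE 0.44, adjusted p = 0.028) was not called by edgeR, by DESeq2, at a pseudocount of 0.1, or, at -1.70 to -1.40, without the third MeWo Dox library, the first or second MeWo control, the first or the third SkMel28 Dox library or the third SkMel28 control.

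In SkMel28, SCRG1 (chr4:173384701-173406380), a secreted protein of cartilage and nerve tissue, was at 0.288, 0 and 0 in the MeWo control libraries, 0, 1.90 and 0 in the MeWo Dox libraries, 1.39, 0.317 and 0.383 in the SkMel28 controls and 25.5, 27.4 and 26.3 in SkMel28 with Dox. COL22A1 (chr8:138588235-138914041), a collagen, was at 0, 0 and 0 in the MeWo control libraries, 0.319, 0 and 0.677 in the MeWo Dox libraries, 0.557, 0.952 and 3.07 in the SkMel28 controls and 27.6, 28.7 and 33.5 in SkMel28 with Dox. MLC1 (chr22:50059391-50085426), a membrane protein of astrocytes, was at 0, 0 and 0 in the MeWo control libraries, 0, 0 and 0 in the MeWo Dox libraries, 2.51, 2.54 and 1.92 in the SkMel28 controls and 24.6, 28.1 and 22.7 in SkMel28 with Dox. All 3 rose without overlap, 37.9-fold, 19.7-fold and 10.8-fold, and MLC1 had no read in any MeWo library, which allows up to 3 reads per library, a value of at most 1.17. The interactions were -3.68 (SE 0.52, adjusted p = 0.000471) for SCRG1, -3.36 (SE 0.46, adjusted p = 0.00034) for COL22A1 and -2.98 (SE 0.34, adjusted p = 6.93e-05) for MLC1. None of these 3 was called by edgeR or DESeq2, and SCRG1 and COL22A1 were not called at a pseudocount of 0.1.

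ZNF114 (chr19:48270081-48287608), a zinc finger protein, was at 0.288, 0.777 and 0 in the MeWo control libraries, 0.319, 1.14 and 0.339 in the MeWo Dox libraries, 11.1, 12.1 and 16.1 in the SkMel28 controls and 1.48, 2.01 and 1.21 in SkMel28 with Dox. CTSG (chr14:24573518-24576250), the serine protease cathepsin G, was at 0, 0 and 0 in the MeWo control libraries, 0, 0 and 0 in the MeWo Dox libraries, 33.4, 40.9 and 39.9 in the SkMel28 controls and 7.42, 8.36 and 9.37 in SkMel28 with Dox. SCUBE2 (chr11:9019476-9138114), a secreted protein that releases Hedgehog ligands, was at 0.864, 0.777 and 0.648 in the MeWo control libraries, 0, 0.758 and 0.339 in the MeWo Dox libraries, 37.0, 25.7 and 40.6 in the SkMel28 controls and 7.12, 8.02 and 9.37 in SkMel28 with Dox. They fell 8.36-fold, 4.54-fold and 4.22-fold in SkMel28, without overlap. The interaction of ZNF114, 2.69 (SE 0.42, adjusted p = 0.00116), was called in every alternative but DESeq2, which gave it no adjusted p, and that of CTSG, 2.06 (SE 0.33, adjusted p = 0.0013), was not called by edgeR or DESeq2. For SCUBE2 it was 1.53 (SE 0.38, adjusted p = 0.0232) and was not called by either, at a pseudocount of 0.1, or, at 1.33 to 1.53, without the second MeWo Dox library, the second or the third MeWo control, the first or second SkMel28 Dox library or the first or the third SkMel28 control.

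**Figure D3:**
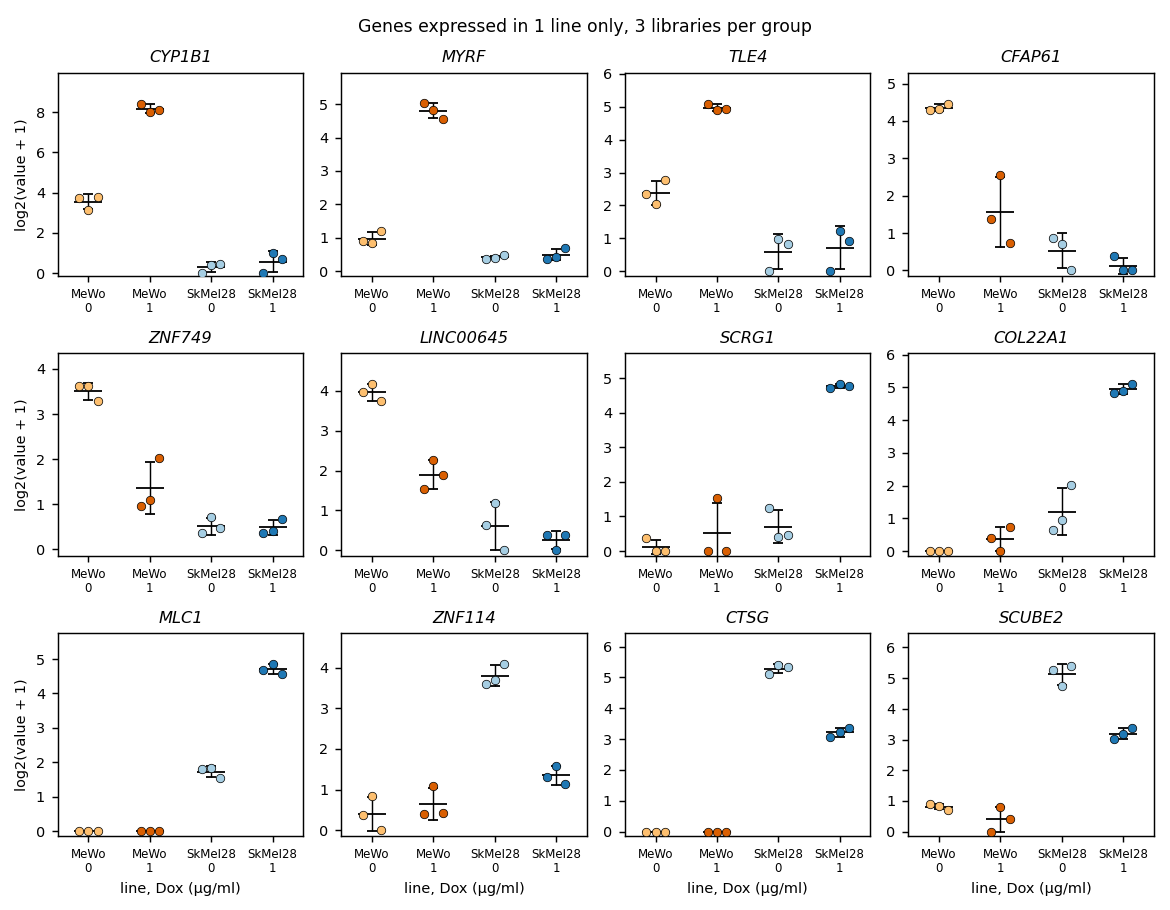
Values of the 12 named genes expressed in 1 line only, as log2(value + 1) on the y axis, with 3 libraries per group at 0 or 1 µg/ml Dox, the mean and 1 SD (whiskers that reach below 0 are cut by the axis). CYP1B1, MYRF and TLE4 rise and CFAP61, ZNF749 and LINC00645 fall in MeWo; SCRG1, COL22A1 and MLC1 rise and ZNF114, CTSG and SCUBE2 fall in SkMel28, while the other line stays near 0.

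Gene lists describe the calls by kind of gene. Lists and members were chosen with earlier results of these data known, so a high share may follow from that choice. They cannot show where the lines differed most often. Each count of interactions is read against 7.09% of all genes, and each median interaction against -0.02, without a test. Counts of changes called within a line are read against the shares of all genes. These were 8.58% higher and 8.12% lower in MeWo, and 5.88% higher and 5.04% lower in SkMel28. Under scaling to the spike-ins the median of all genes was 0.30, and a list's median is followed by its value under any scaling that turned its sign; relative to all genes, the sign turned only for the dedifferentiated neural crest and heat shock lists. In parentheses after a gene stand its log2 changes with Dox, and SEs of such a change ranged from 0.0955 to 0.423. None of the named genes' called changes turned its sign in any alternative. A gene said to change in 1 line had its change called there, and libraries of the other line could also be separate. In SkMel28, without a call, Dox libraries were below all controls for CEBPB, ATP6V1B2, KCNAB2, TAPBP, CCND1, RPLP0, KCNJ10 and LUM. They were above all controls for CTSC, HSPA5, PMP22, ID2, SLC7A8 and ATP5B. In MeWo, without a call, they were above all controls for AEN and DTX3L. Where leaving out 1 library ended a call of a gene named from a list, that library is given, by its group and number, at the end of the paragraph. Fitted changes of genes near 0 depend on the pseudocount and are no bounds.

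Among pigment and melanosome genes, the classical MITF targets, 8 of 30 listed members had the interaction called, 1 of them more positive and 7 more negative in MeWo, with a median interaction of -0.34 (0.02 with spike-in scaling). In MeWo 2 higher and 18 lower members were called and in SkMel28 2 higher and 13 lower. MLANA (-1.65 in MeWo, -0.54 in SkMel28), a melanosome antigen, and MLPH (-1.46 in MeWo, -0.51 in SkMel28), which links melanosomes to myosin, fell in both lines. TYRP1 (-1.42 in MeWo, -0.52 in SkMel28), an enzyme of eumelanin synthesis, and SLC24A5 (-0.44 in MeWo, 0.32 in SkMel28), a melanosomal ion exchanger, fell in MeWo. Their SkMel28 changes were not called, but every SkMel28 Dox library was below its controls for TYRP1 and above them for SLC24A5. The exception was DCT (0.91 in MeWo, -0.24 in SkMel28), dopachrome tautomerase, which rose in MeWo from 939.9, 933 and 976 to 1954, 1781 and 1637 and was at 1238, 945 and 1097 and then 858, 904 and 995 in SkMel28. Leaving out any 1 of the libraries in parentheses ended the call of the change for MLPH in SkMel28 (SkMel28 Dox 1 and 2, SkMel28 control 1 and 3) and SLC24A5 in MeWo (MeWo Dox 2, MeWo control 2 and 3). The interaction was no longer called, without any 1 of the libraries given, for TYRP1 at -0.95 to -0.77 (any library but MeWo Dox 1, SkMel28 Dox 3, SkMel28 control 1). With spike-in scaling the interaction was not called for MLANA (-0.73), MLPH (-0.58), TYRP1 (-0.53) or SLC24A5 (-0.39). That of DCT (1.53) was called.

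Among lineage factors 2 of 19 listed members had the interaction called, 1 of them more positive and 1 more negative in MeWo, and the median was -0.14 (0.22 with spike-in scaling). TFAP2A, which acts beside MITF at melanocyte genes, was at 673, 664 and 709.9 in the MeWo control libraries, 485, 332 and 381 in the MeWo Dox libraries, 141, 155 and 149.8 in the SkMel28 controls and 311, 296 and 299 in SkMel28 with Dox. It fell in MeWo and rose in SkMel28 without overlap in either line, with changes of -0.79 (SE 0.12, adjusted p = 0.000208) and 1.02 (SE 0.12, adjusted p = 2.66e-05), and the lines were closer with Dox than without. TBX2, a T-box repressor, was at 47.5, 36.5 and 48.6 in the MeWo control libraries, 114, 221 and 181 in the MeWo Dox libraries, 26.5, 27.3 and 22.2 in the SkMel28 controls and 27.0, 30.7 and 30.8 in SkMel28 with Dox. Its rise of 1.89 was in MeWo, where all Dox libraries were above all controls. Dedifferentiated neural crest genes had many calls in either direction: 7 of 19 listed members had the interaction called, 2 of them more positive and 5 more negative in MeWo, at a median of -0.02 (0.19 with spike-in scaling). FN1 (-0.03 in MeWo, 1.76 in SkMel28), fibronectin, and CD44 (-0.13 in MeWo, 0.95 in SkMel28), a hyaluronan receptor, rose in SkMel28, ERBB3 (1.68 in MeWo, 0.56 in SkMel28), a neuregulin receptor, rose in both and more in MeWo, and L1CAM (-1.01 in MeWo, 0.08 in SkMel28), a cell adhesion molecule, fell in MeWo. Without any 1 of the libraries given, the interaction lost its call for L1CAM at -1.14 to -0.83 (any library but MeWo Dox 1, SkMel28 Dox 1 and 3).

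For genes of myelin and glia, 9 of 23 listed members had the interaction called, 4 of them more positive and 5 more negative in MeWo, with a median of 0.23. MYRF in MeWo and SCRG1 in SkMel28 were described above. GPM6B (-0.92 in MeWo, 0.52 in SkMel28), a proteolipid of the myelin family, was at 317, 349 and 344 in the MeWo control libraries, 213, 147 and 177 in the MeWo Dox libraries, 233, 230.4 and 255 in the SkMel28 controls and 359.8, 342 and 326 in SkMel28 with Dox, and changed in opposite directions. PMP22 (-0.76 in MeWo, 0.54 in SkMel28), a myelin protein, fell in MeWo and S100A1 (1.03 in MeWo, -0.36 in SkMel28), a calcium-binding protein, rose there. Of the aryl hydrocarbon receptor list, 2 of 9 listed members had the interaction called, 1 of them more positive and 1 more negative in MeWo, at a median of -0.48. Besides CYP1B1 this was TIPARP (-0.80 in MeWo, 1.22 in SkMel28), a poly-ADP-ribosyltransferase induced by the receptor, which rose in SkMel28. The change lost its call without any 1 of the libraries given for GPM6B in SkMel28 (SkMel28 Dox 1), PMP22 in MeWo (MeWo Dox 3) and TIPARP in SkMel28 (SkMel28 Dox 1, 2 and 3, SkMel28 control 1, 2 and 3).

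Secreted signals and their receptors differed gene by gene. In the TGF-beta and BMP list 4 of 29 listed members had the interaction called, 2 of them more positive and 2 more negative in MeWo, at a median of -0.34 (0.03 with spike-in scaling). INHBA, an activin subunit, was at 3.74, 3.89 and 1.62 in the MeWo control libraries, 25.5, 36.4 and 33.9 in the MeWo Dox libraries, 0.557, 0.317 and 0 in the SkMel28 controls and 1.19, 1.34 and 0.604 in SkMel28 with Dox. Its rise was called in MeWo, the SkMel28 Dox libraries were also above their controls, and the interaction was not called by edgeR, DESeq2 or at a pseudocount of 0.1. TGFBR2 (-0.05 in MeWo, 1.90 in SkMel28), the type II TGF-beta receptor, rose in SkMel28. GDF15, a stress-induced secreted factor, was at 324, 330.2 and 384 in the MeWo control libraries, 644, 880.4 and 1012 in the MeWo Dox libraries, 354, 456 and 375 in the SkMel28 controls and 269, 238 and 282 in SkMel28 with Dox. GDF15 rose in MeWo and fell in SkMel28 without overlap, and ID2 (-0.86 in MeWo, 0.54 in SkMel28), a target of BMP signalling, fell in MeWo. In the Wnt list 4 of 31 listed members had the interaction called, 2 of them more positive and 2 more negative in MeWo, with a median of -0.14 (0.19 with spike-in scaling). FZD7 was opposite, NKD1 (2.32 in MeWo, 0.59 in SkMel28), an inhibitor of the pathway, and FZD9 (1.99 in MeWo, -0.04 in SkMel28), a receptor expressed in MeWo only, rose in MeWo, and LGR4 (-0.27 in MeWo, 1.45 in SkMel28), a receptor for R-spondins, rose in SkMel28. Calls of the change that ended without any 1 of the libraries given were those for GDF15 in SkMel28 (SkMel28 Dox 1 and 2, SkMel28 control 2). Interactions that lost their call without any 1 of the libraries given were those of FZD9 at 1.66 to 2.12 (any library but MeWo Dox 1, SkMel28 Dox 2) and NKD1 at 1.64 to 1.71 (MeWo Dox 3, MeWo control 2). The interactions of FZD9 and NKD1 were also not called by edgeR, DESeq2 or at a pseudocount of 0.1.

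Axon guidance genes gave a similar mix: 6 of 33 listed members had the interaction called, 2 of them more positive and 4 more negative in MeWo, at a median of -0.18 (0.14 with spike-in scaling). SEMA3B (4.39 in MeWo, 2.41 in SkMel28), a secreted semaphorin, rose in both lines and more in MeWo, and SEMA3D (0.53 in MeWo, 2.85 in SkMel28) rose in SkMel28, where alone it was expressed. SEMA3C, another secreted semaphorin, was at 81.8, 81.6 and 81.3 in the MeWo control libraries, 51.1, 26.5 and 43.0 in the MeWo Dox libraries, 4.73, 5.39 and 3.83 in the SkMel28 controls and 10.1, 10.0 and 8.76 in SkMel28 with Dox. It fell in MeWo and rose in SkMel28 without overlap. PLXNC1 (-1.73 in MeWo, -0.13 in SkMel28), a semaphorin receptor, fell in MeWo and SEMA5A (0.39 in MeWo, -1.30 in SkMel28) fell in SkMel28. Leaving out any 1 of the libraries in parentheses ended the call of the change for SEMA3C in SkMel28 (SkMel28 control 3). The interactions of SEMA3B and SEMA3D were not called by edgeR or at a pseudocount of 0.1. DESeq2 gave no adjusted p for SEMA3D.

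Matrix and adhesion genes were called often. Of collagens and matrix genes 11 of 34 listed members had the interaction called, 5 of them more positive and 6 more negative in MeWo, with a median of -0.04 (0.21 with spike-in scaling). COL11A1 (-0.16 in MeWo, 2.32 in SkMel28) and COL6A1 (-0.20 in MeWo, 2.10 in SkMel28), both collagen chains, rose in SkMel28, and COL16A1 (2.71 in MeWo, 0.23 in SkMel28) rose in MeWo. FN1 was at 1191, 1549 and 1272 in SkMel28 controls and 4459.7, 4567 and 4447 with Dox, against 43.2, 43.5 and 50.8 and 30.0, 70.9 and 42.3 in MeWo. Among adhesion receptors 5 of 27 listed members had the interaction called, 2 of them more positive and 3 more negative in MeWo, at a median of -0.09 (0.27 with spike-in scaling). The integrin chain ITGA4 was at 2.02, 1.55 and 2.27 in the MeWo control libraries, 33.5, 34.9 and 51.5 in the MeWo Dox libraries, 6.40, 6.98 and 5.36 in the SkMel28 controls and 12.8, 17.4 and 10.6 in SkMel28 with Dox. ITGA4 rose in both lines and more in MeWo, whereas ITGA1 (-0.36 in MeWo, 1.69 in SkMel28) and ITGA2 (0.48 in MeWo, 2.14 in SkMel28) rose and ITGA7 (0.11 in MeWo, -1.30 in SkMel28) fell in SkMel28. Of serpins and proteases 4 of 29 listed members had the interaction called, 3 of them more positive and 1 more negative in MeWo, with a median of -0.13 (0.18 with spike-in scaling). SERPINA5 (3.13 in MeWo, 0.01 in SkMel28), a protease inhibitor, rose and MMP2 (-1.27 in MeWo, 0.22 in SkMel28), a gelatinase, fell in MeWo, where alone they were expressed, and TIMP3 (1.61 in MeWo, 1.01 in SkMel28), an inhibitor of metalloproteases, rose in both lines. The change lost its call without any 1 of the libraries given for ITGA4 in SkMel28 (SkMel28 Dox 2, SkMel28 control 3). The interaction was no longer called, without any 1 of the libraries given, for ITGA2 at -1.78 to -1.24 (any library but MeWo Dox 1, SkMel28 control 1), MMP2 at -1.55 to -1.34 (any library but MeWo Dox 1, SkMel28 Dox 1 and 3, SkMel28 control 3) and TIMP3 at 0.57 to 0.60 (MeWo control 1 and 2, SkMel28 Dox 2). The interactions of COL11A1, ITGA2 and MMP2 were not called by edgeR, DESeq2 or at a pseudocount of 0.1. That of SERPINA5 was not called by edgeR and had no adjusted p from DESeq2. That of ITGA1 was not called at a pseudocount of 0.1.

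Of YAP-TEAD targets 6 of 25 listed members had the interaction called, 1 of them more positive and 5 more negative in MeWo, with a median of -0.37. Their change was called in MeWo for 2 higher and 1 lower and in SkMel28 for 7 higher and 1 lower. Beside IGFBP3, AMOTL2 (-0.63 in MeWo, 1.96 in SkMel28), a YAP-binding junction protein, MYOF (-0.42 in MeWo, 1.49 in SkMel28), a membrane repair protein, and CRIM1 (0.14 in MeWo, 1.68 in SkMel28), a BMP-binding protein, rose in SkMel28, and for LATS2 (-0.55 in MeWo, 0.51 in SkMel28), a kinase that restrains YAP, neither change was called. In the MAPK output list 5 of 22 listed members had the interaction called, 4 of them more positive and 1 more negative in MeWo, at a median of 0.23. IER3 (1.73 in MeWo, -0.10 in SkMel28) and PHLDA1 (1.41 in MeWo, 0.18 in SkMel28), immediate early genes, CCND1 (0.98 in MeWo, -0.56 in SkMel28), cyclin D1, and DUSP6 (0.76 in MeWo, -0.08 in SkMel28), a phosphatase that acts on ERK, rose in MeWo. CCND1 was at 146, 131 and 101.4 in the MeWo control libraries, 163, 357 and 255 in the MeWo Dox libraries, 863, 959 and 1032 in the SkMel28 controls and 586, 669 and 679 in SkMel28 with Dox. SPRED1 (-0.04 in MeWo, 0.94 in SkMel28), an inhibitor of Ras signalling, rose in SkMel28. Without any 1 of the libraries given, the interaction lost its call for SPRED1 at -0.98 to -0.92 (MeWo control 2 and 3, SkMel28 Dox 1 and 2, SkMel28 control 3), MYOF at -1.81 to -1.62 (MeWo control 2 and 3, SkMel28 Dox 1, SkMel28 control 2), CRIM1 at -1.54 to -1.27 (MeWo Dox 2, MeWo control 1 and 3, SkMel28 Dox 2 and 3, SkMel28 control 3) and LATS2 at -1.06 to -0.91 (MeWo Dox 2, MeWo control 2 and 3, SkMel28 Dox 2, SkMel28 control 1 and 2). That of MYOF was not called by edgeR or at a pseudocount of 0.1. With spike-in scaling the interaction was not called for CRIM1, LATS2 or SPRED1, and it was called for IGFBP3, AMOTL2 and MYOF.

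Proliferation lists had few interaction calls but medians above that of all genes. Of all genes, 8.12% were called lower in MeWo and 5.04% in SkMel28. For DNA replication 2 of 48 listed members had the interaction called, 2 of them more positive and 0 more negative in MeWo, with a median of 0.38, and 0 higher and 3 lower were called in MeWo against 0 higher and 12 lower in SkMel28. For mitosis 1 of 46 listed members had the interaction called, 1 of them more positive and 0 more negative in MeWo, the median was 0.26, and the calls were 0 higher and 7 lower in MeWo and 0 higher and 17 lower in SkMel28. POLD1 (0.12 in MeWo, -1.18 in SkMel28), a DNA polymerase subunit, and BIRC5 (0.06 in MeWo, -0.61 in SkMel28), survivin, fell in SkMel28, and for RRM2 (0.28 in MeWo, -0.34 in SkMel28), a ribonucleotide reductase subunit, neither change was called. Among p53 targets 3 of 20 listed members had the interaction called, 3 of them more positive and 0 more negative in MeWo, at a median of 0.06: GDF15, AEN (0.42 in MeWo, -0.48 in SkMel28), a nuclease whose SkMel28 fall was not called in 13 of 23 alternatives, and PLK3 (0.53 in MeWo, -0.54 in SkMel28), a kinase with neither change called. Calls of the change that ended without any 1 of the libraries given were those for AEN in SkMel28 (any library but MeWo Dox 1, 2 and 3). Interactions that lost their call without any 1 of the libraries given were those of POLD1 at 0.97 to 1.43 (any library but MeWo Dox 1), RRM2 at 0.54 to 0.68 (any library but MeWo Dox 1 and 3), BIRC5 at 0.54 to 0.70 (any library but MeWo Dox 1) and PLK3 at 0.93 to 1.10 (any library but MeWo Dox 1, MeWo control 3, SkMel28 Dox 2, SkMel28 control 1).

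Of lysosomal hydrolases and membrane proteins, of which many answer to TFEB and TFE3, 10 of 42 listed members had the interaction called, 8 of them more positive and 2 more negative in MeWo, with a median of 0.20. CTSC (1.36 in MeWo, 0.35 in SkMel28) and CTSD (0.53 in MeWo, -0.45 in SkMel28), cathepsins, and GALNS (1.08 in MeWo, 0.09 in SkMel28), a sulfatase, rose in MeWo, where the CTSD libraries overlapped, while CTSK fell there. CD68, a lysosomal membrane protein that is also the leukocyte marker named above, was at 151, 134 and 132 in the MeWo control libraries, 57.5, 107 and 147 in the MeWo Dox libraries, 78.2, 100.9 and 80.9 in the SkMel28 controls and 19.6, 18.7 and 23.0 in SkMel28 with Dox. It fell in SkMel28 and overlapped in MeWo; whether other cells had a part in it was not tested, and the defining leukocyte marker PTPRC is not listed. Of V-ATPase subunits, which acidify lysosomes, 3 of 22 listed members had the interaction called, 2 of them more positive and 1 more negative in MeWo, at a median of -0.07 (0.25 with spike-in scaling). ATP6V1B2 (-1.07 in MeWo, -0.21 in SkMel28) fell in MeWo, and ATP6AP1 (0.26 in MeWo, -0.72 in SkMel28) and ATP6V1E2 (0.26 in MeWo, -1.17 in SkMel28) fell in SkMel28. Leaving out any 1 of the libraries in parentheses ended the call of the change for CTSD in MeWo (MeWo Dox 2 and 3, MeWo control 2 and 3). The interaction was no longer called, without any 1 of the libraries given, for GALNS at 0.80 to 1.02 (any library but MeWo Dox 1, MeWo control 1, SkMel28 Dox 3).

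Amino acid transporters had calls in 1 direction: 5 of 20 listed members had the interaction called, 0 of them more positive and 5 more negative in MeWo, with a median of -0.53. SLC6A15 (-1.52 in MeWo, 0.15 in SkMel28), SLC7A8 (-0.71 in MeWo, 0.32 in SkMel28) and SLC3A2 (-0.81 in MeWo, 0.02 in SkMel28), the heavy chain shared by several transporters, fell in MeWo, and SLC1A4 (-0.44 in MeWo, 0.89 in SkMel28) and SLC38A2 (-0.17 in MeWo, 0.98 in SkMel28), carriers of small neutral amino acids, rose in SkMel28. SLC1A4 was at 477, 470.1 and 447 in the MeWo control libraries, 515, 299 and 259 in the MeWo Dox libraries, 493, 330.3 and 464 in the SkMel28 controls and 714, 747 and 909 in SkMel28 with Dox. MeWo with Dox overlapped its controls, the first Dox library being the highest of the line, and in SkMel28 the groups were apart. In the ATF4 stress list 4 of 30 listed members had the interaction called, 2 of them more positive and 2 more negative in MeWo, at a median of 0.01 (-0.02 with upper-quartile scaling), with DDIT4 (2.06 in MeWo, -0.32 in SkMel28), an inhibitor of mTORC1, and WARS (0.99 in MeWo, 0.12 in SkMel28), a tRNA synthetase, rising and CEBPB (-0.95 in MeWo, -0.26 in SkMel28) falling in MeWo. The change lost its call without any 1 of the libraries given for SLC7A8 in MeWo (MeWo control 3). Without any 1 of the libraries given, the interaction lost its call for CEBPB at -0.73 to -0.57 (any library but MeWo Dox 1) and SLC7A8 at -1.03 to -0.93 (MeWo control 3, SkMel28 Dox 1 and 2, SkMel28 control 1 and 3). That of CEBPB was also not called by edgeR or at a pseudocount of 0.1. With spike-in scaling the interaction was not called for SLC3A2 (-0.46), SLC7A8 (-0.69), SLC38A2 (-0.78) or CEBPB (-0.32). It was then called for SLC6A15 (-1.31) and SLC1A4 (-0.96).

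Of glycolysis genes 3 of 24 listed members had the interaction called, 3 of them more positive and 0 more negative in MeWo, with a median of 0.08. SLC16A3, a lactate exporter, was at 25.9, 23.7 and 20.1 in the MeWo control libraries, 26.8, 48.5 and 44.4 in the MeWo Dox libraries, 45.4, 44.1 and 46.8 in the SkMel28 controls and 28.8, 30.4 and 27.5 in SkMel28 with Dox. It rose in MeWo and fell in SkMel28, the first MeWo Dox library being only just above its highest control, and it was opposite in 9 of 23 alternatives, not with the replicate block, spike-in scaling or no trend. Of the others, SLC2A3 (1.15 in MeWo, 0.08 in SkMel28), a glucose transporter, rose in MeWo. Among hypoxia targets 3 of 15 listed members had the interaction called, 2 of them more positive and 1 more negative in MeWo, at a median of 0.04, where P4HA2 (1.24 in MeWo, 0.11 in SkMel28), a collagen prolyl hydroxylase, rose in MeWo and MXI1 (-0.06 in MeWo, 1.01 in SkMel28), a MYC antagonist, rose in SkMel28. The large machinery lists lay under the background: for the respiratory chain 2 of 76 listed members had the interaction called, 0 of them more positive and 2 more negative in MeWo, at a median of -0.08 (0.29 with spike-in scaling), and for the cytosolic ribosome 2 of 79 listed members had the interaction called, 1 of them more positive and 1 more negative in MeWo, at 0.07. Their called members were ATP5B (-0.44 in MeWo, 0.23 in SkMel28) and NDUFA4 (-0.29 in MeWo, 0.31 in SkMel28), and RPLP0 (0.55 in MeWo, -0.37 in SkMel28) and RPL30 (-0.34 in MeWo, 0.34 in SkMel28). For fatty acid synthesis 2 of 15 listed members had the interaction called, 1 of them more positive and 1 more negative in MeWo, at -0.10 (0.27 with spike-in scaling), these being FADS1 (0.76 in MeWo, -0.06 in SkMel28), a desaturase, and LPIN1 (-0.88 in MeWo, -0.15 in SkMel28), a phosphatidate phosphatase. Calls of the change that ended without any 1 of the libraries given were those for SLC16A3 in MeWo (MeWo Dox 2 and 3, MeWo control 3), SLC16A3 in SkMel28 (any library but MeWo Dox 1, 2 and 3, MeWo control 3), ATP5B in MeWo (MeWo Dox 3, MeWo control 2) and RPLP0 in MeWo (any library but MeWo Dox 1, SkMel28 control 1 and 2). Interactions that lost their call without any 1 of the libraries given were those of LPIN1 at -0.81 to -0.65 (any library but MeWo Dox 1 and 2, SkMel28 Dox 3), ATP5B at -0.64 to -0.60 (MeWo Dox 3, MeWo control 2, SkMel28 Dox 2, SkMel28 control 2), NDUFA4 at -0.64 to -0.50 (any library but MeWo Dox 1), RPLP0 at 0.77 to 0.97 (any library but MeWo Dox 1, SkMel28 Dox 3, SkMel28 control 1) and RPL30 at -0.75 to -0.54 (any library but MeWo Dox 1, MeWo control 1).

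In the MHC class I list 4 of 22 listed members had the interaction called, 4 of them more positive and 0 more negative in MeWo, with a median of 0.39. Besides HLA-C these were CALR (0.90 in MeWo, -0.21 in SkMel28), PDIA3 (0.89 in MeWo, 0.04 in SkMel28) and TAPBP (0.60 in MeWo, -0.32 in SkMel28), parts of the peptide-loading complex, which rose in MeWo. Of interferon-stimulated genes 5 of 36 listed members had the interaction called, 2 of them more positive and 3 more negative in MeWo, at a median of -0.29. GBP2 (0.76 in MeWo, 2.86 in SkMel28), a guanylate-binding protein, rose in SkMel28 and ISG15 (-0.35 in MeWo, -1.85 in SkMel28), a ubiquitin-like modifier, and DTX3L (0.21 in MeWo, -0.53 in SkMel28), a ubiquitin ligase, fell there, while IFI27 (-1.46 in MeWo, 0.11 in SkMel28) fell in MeWo. HERC5 (-1.30 in MeWo, -0.51 in SkMel28) fell in MeWo, every SkMel28 Dox library was also below its controls, and its class held in 2 of 23 alternatives. IFI27 was at 157, 157 and 158 in MeWo controls, 57.1, 56.9 and 55.9 in MeWo with Dox, and at most 1.92 in SkMel28. The interactions of GBP2 and IFI27 were not called by edgeR, DESeq2 or at a pseudocount of 0.1. Of heat shock proteins 2 of 26 listed members had the interaction called, 2 of them more positive and 0 more negative in MeWo, at a median of -0.04 (0.33 with spike-in scaling), and both HSP90B1 (1.11 in MeWo, 0.23 in SkMel28) and HSPA5 (0.79 in MeWo, 0.29 in SkMel28), chaperones of the endoplasmic reticulum, rose in MeWo. Of ion channels 3 of 26 listed members had the interaction called, 2 of them more positive and 1 more negative in MeWo, at -0.26: KCNN4, KCNAB2 (-1.72 in MeWo, -0.30 in SkMel28), a potassium channel subunit that fell in MeWo, and KCNJ10 (1.40 in MeWo, -0.79 in SkMel28), an inward rectifier near the floor that rose there. Of tubulins 1 of 17 listed members had the interaction called, 1 of them more positive and 0 more negative in MeWo, at 0.10, and of HOX, SOX and FOX factors 1 of 39 listed members had the interaction called, 1 of them more positive and 0 more negative in MeWo, at 0.04, with FOXD2 (1.27 in MeWo, -0.05 in SkMel28) rising in MeWo. LUM (-1.78 in MeWo, -0.63 in SkMel28), lumican, a fibroblast marker, fell in MeWo, from 40.9, 46.6 and 45.7 to 16.3, 8.34 and 13.2. Its interaction was not called by edgeR or at a pseudocount of 0.1. Leaving out any 1 of the libraries in parentheses ended the call of the change for TAPBP in MeWo (MeWo control 3). The interaction was no longer called, without any 1 of the libraries given, for IFI27 at -1.57 (MeWo control 2), ISG15 at 1.32 to 1.54 (any library but MeWo Dox 1, SkMel28 Dox 2, SkMel28 control 1 and 3), HERC5 at -0.84 to -0.71 (any library but MeWo Dox 1 and 2), CALR at 1.01 to 1.07 (MeWo control 2, SkMel28 Dox 2, SkMel28 control 2), PDIA3 at 0.77 (MeWo control 2), HSP90B1 at 0.72 to 0.91 (MeWo Dox 3, MeWo control 1, 2 and 3, SkMel28 Dox 3, SkMel28 control 2), HSPA5 at 0.47 to 0.52 (any library but MeWo Dox 1, SkMel28 Dox 3), FOXD2 at 1.08 to 1.35 (any library but MeWo Dox 1, MeWo control 1 and 3, SkMel28 Dox 3, SkMel28 control 1) and LUM at -1.24 to -0.91 (any library but MeWo Dox 1, SkMel28 Dox 3).

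Without the first MeWo Dox library 25 named genes, MITF among them, moved to another class, 16 to opposite changes and 7 to changes in the same direction, as more changes passed the threshold. Besides DNER and UCN2, both changes were then called in opposite directions for these genes, with the MeWo and then the SkMel28 change: SLC24A5 (-0.51, 0.32), PMP22 (-1.05, 0.54), TIPARP (-1.31, 1.22), NDUFA4 (-0.40, 0.31), RPLP0 (0.83, -0.37), RPL30 (-0.52, 0.34), AEN (0.57, -0.48), CCND1 (1.27, -0.56), CTSD (0.73, -0.45), ATP6AP1 (0.45, -0.72), ID2 (-0.80, 0.54), SLC1A4 (-0.74, 0.89), SEMA5A (0.60, -1.30) and AMOTL2 (-0.93, 1.96). Besides MITF and CTSK, both were called in the same direction for TYRP1 (-1.66, -0.52), HERC5 (-1.30, -0.51), HSPA5 (0.84, 0.29), KCNAB2 (-1.89, -0.30) and LUM (-1.98, -0.63). For RRM2 only the SkMel28 change (-0.34) and for LATS2 only the MeWo change (-0.62) was then called.

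**Figure D4:**
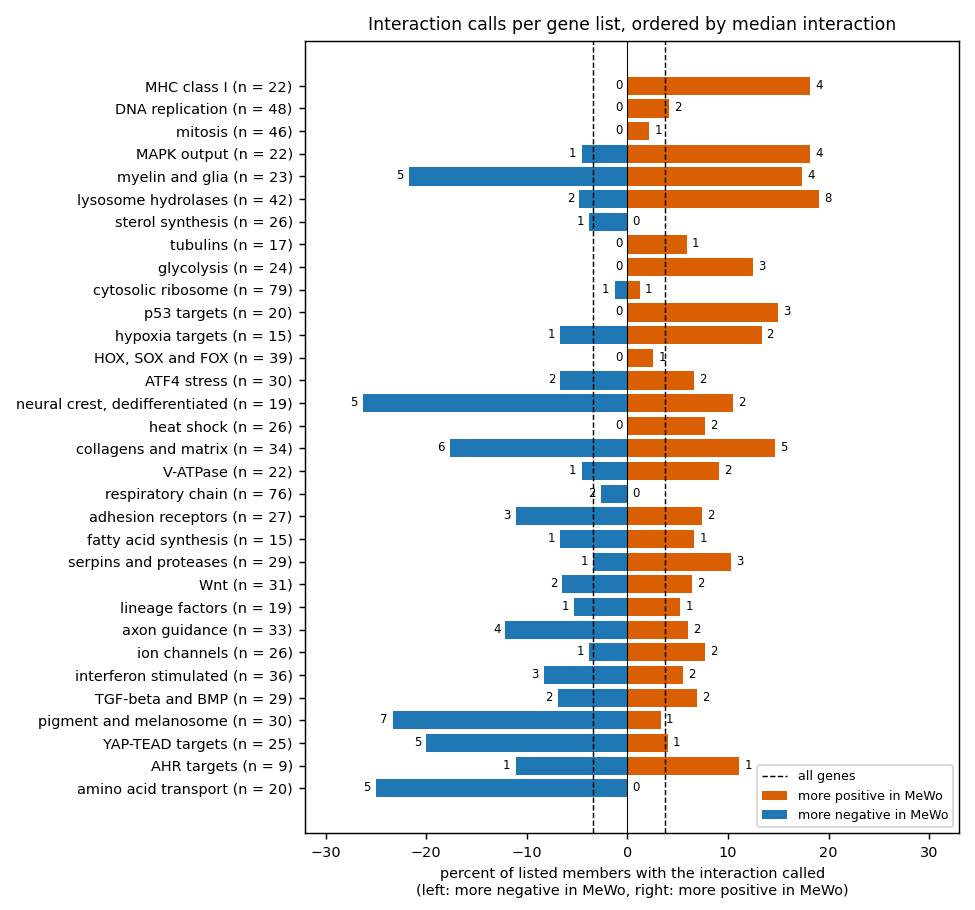
Percent of each list's members in the table with the interaction called, more positive in MeWo to the right and more negative to the left, with the number of genes at each bar and lists ordered by median interaction; dashed lines mark all genes, 3.71% on the right and 3.38% on the left. Amino acid transport has 5 calls to the left and none to the right, and MHC class I has 4 to the right and none to the left. With spike-in scaling, which is not drawn, 89.5% of all calls were more positive in MeWo.

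**Figure D5:**
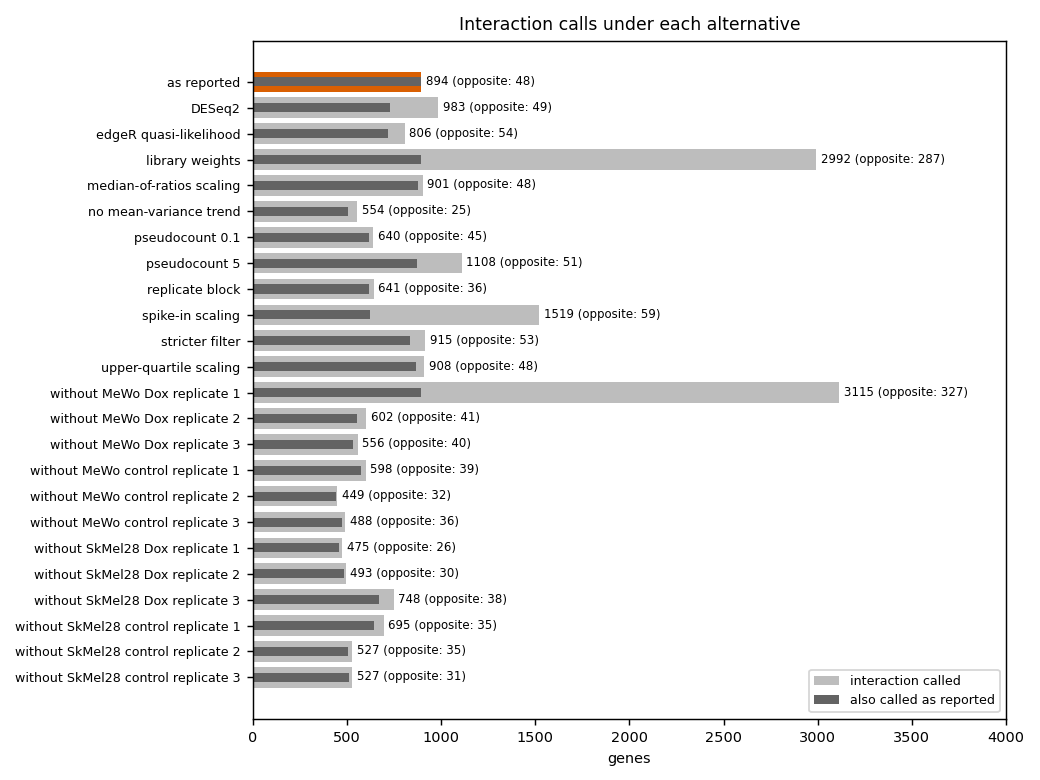
Number of genes (x axis) with the interaction called in the reported fit and in each of 23 alternative fits (y axis), with the number also called in the reported fit as the inner bar and the count of opposite responses beside it. The largest counts are 3115 without the first MeWo Dox library and 2992 with library weights, which contain 894 and 893 of the 894.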

How the data were processed

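MeWo and SkMel28 cells with the inducible hairpin were sequenced as 3′ end libraries, 3 per group in 4 groups. The authors deposited 1 table of normalised signal values; the submitters' processing notes name FastQC 0.11.7, cutadapt 2.8, STAR 2.5.1b, edgeR and the build hg38. The counter, annotation and strand setting are not given in the sources used here. Each deposited signal value was a whole number of reads (100% within 0.01) divided by a factor per library, and these reads were recovered for the count alternatives.

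Values were taken as log2(value + 1) and fitted with limma 3.58.1 (R 4.3.3) with 4 group means and a mean-variance trend, with Benjamini-Hochberg adjustment over 12616 genes. Each listed feature reached a value of 1 in 3 libraries or more. Alternatives were edgeR 4.0.16 (quasi-likelihood) and DESeq2 1.42.0 on the recovered reads, 3 other scalings, pseudocounts of 0.1 and 5, a filter of 5 in 3 libraries, library weights, no trend, a replicate block, and each of 12 libraries left out. Counts of genes expressed in 1 line only were also made with limits of 0.5 and 2. A group with at most 3 reads per library was at the floor; its fold is a ratio of summed reads with an exact interval, which covers counting error only. The fit was also run on simulated reads with the same spread in every library. Changes were added only in MeWo with Dox and only to well expressed genes. That run cannot show how the fit behaves with the unequal spread of these libraries or near the floor.

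Named were MITF, then, among genes past the threshold whose mean reached 10 in some group, the 6 opposite genes per direction with the largest smaller change, 3 per line and direction in the classes expressed or called in 1 line, 3 per line with both changes in the same direction, and up to 5 called members of each list; 1 of them is not reported here. Members and lists were chosen with earlier results of these data known. Promoter windows are from RefSeq.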

Additional observations from a re-analysis of the deposited data

Results flagged for a closer look

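The test of the difference between the lines itself, the interaction in limma over all genes, passed for 894 genes, 48 of them with changes called in opposite directions. The values below are interactions on log2(value + 1), the MeWo change minus the SkMel28 change, each past an adjusted p of 0.05. After a gene stands the number of its alternative fits, of at most 23, in which this call was lost, where there were any, and then the number in which the gene kept its class, where under 23; the class also needs the calls of the changes in each line.

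With opposite changes, the interaction was more positive in MeWo for FXYD3 at 3.12, TMSB4X at 2.66 (class kept in 21), ST3GAL1 at 2.62, RALB at 2.26, APBB1 at 1.52 (class kept in 13), PFKFB4 at 1.70 (class kept in 17), SLC16A3 at 1.35 (class kept in 9) and GDF15 at 1.85 (class kept in 19). With opposite changes, the interaction was more negative in MeWo for FZD7 at -2.85, HDAC9 at -3.01, IGFBP3 at -2.76, XYLT1 at -3.39 (class kept in 18), RGS2 at -2.20 (class kept in 21), SPP1 at -2.07, TFAP2A at -1.81, GPM6B at -1.44 (class kept in 20) and SEMA3C at -1.97 (class kept in 22). Among genes expressed in MeWo only, the interaction was more positive in MeWo for CYP1B1 at 4.35 (lost in 2, class kept in 21), MYRF at 3.75, TLE4 at 2.47 (lost in 3, class kept in 20), FZD9 at 2.03 (lost in 14, class kept in 9) and SERPINA5 at 3.12 (lost in 1, class kept in 21). Among genes expressed in MeWo only, the interaction was more negative in MeWo for CFAP61 at -2.39 (lost in 3, class kept in 20), ZNF749 at -2.12 (lost in 1, class kept in 21), LINC00645 at -1.71 (lost in 9, class kept in 14) and MMP2 at -1.49 (lost in 12, class kept in 11). Among genes expressed in SkMel28 only, the interaction was more positive in MeWo for ZNF114 at 2.69 (class kept in 22), CTSG at 2.06 (lost in 2, class kept in 21) and SCUBE2 at 1.53 (lost in 10, class kept in 13). Among genes expressed in SkMel28 only, the interaction was more negative in MeWo for SCRG1 at -3.68 (lost in 3, class kept in 20), COL22A1 at -3.36 (lost in 3, class kept in 20), MLC1 at -2.98 (lost in 2, class kept in 21), COL11A1 at -2.48 (lost in 3, class kept in 20) and SEMA3D at -2.31 (lost in 2, class kept in 20). With the change called in MeWo only, the interaction was more positive in MeWo for TUBB2B at 3.45, BCL3 at 2.85, LINC01239 at 2.68, DCT at 1.15 (class kept in 22), TBX2 at 1.68, S100A1 at 1.39, FADS1 at 0.82 (lost in 1, class kept in 22), SLC2A3 at 1.06, DDIT4 at 2.38, P4HA2 at 1.12, RPLP0 at 0.92 (lost in 11, class kept in 9), IER3 at 1.83, CCND1 at 1.54 (class kept in 20), PHLDA1 at 1.23 (lost in 1, class kept in 22), DUSP6 at 0.83 (lost in 1, class kept in 22), CALR at 1.11 (lost in 4, class kept in 19), TAPBP at 0.92 (lost in 1, class kept in 20), PDIA3 at 0.85 (lost in 2, class kept in 21), CTSC at 1.01 (class kept in 22), GALNS at 0.99 (lost in 11, class kept in 12), CTSD at 0.98 (lost in 1, class kept in 15), WARS at 0.88 (lost in 1, class kept in 22), HSP90B1 at 0.88 (lost in 7, class kept in 16), HSPA5 at 0.50 (lost in 12, class kept in 8), COL16A1 at 2.48, INHBA at 2.38 (lost in 3, class kept in 20), NKD1 at 1.73 (lost in 5, class kept in 18), FOXD2 at 1.31 (lost in 8, class kept in 15) and KCNJ10 at 2.19 (class kept in 20). With the change called in MeWo only, the interaction was more negative in MeWo for FAM69C at -3.82 (class kept in 22), CTSK at -3.23 (class kept in 21), DNER at -3.05 (class kept in 22), TYRP1 at -0.90 (lost in 11, class kept in 9), SLC24A5 at -0.76 (lost in 1, class kept in 16), L1CAM at -1.09 (lost in 11, class kept in 12), PMP22 at -1.30 (class kept in 19), LPIN1 at -0.73 (lost in 14, class kept in 9), ATP5B at -0.67 (lost in 7, class kept in 16), IFI27 at -1.57 (lost in 4, class kept in 19), HERC5 at -0.79 (lost in 15, class kept in 2), ATP6V1B2 at -0.86 (lost in 1, class kept in 22), SLC3A2 at -0.83 (lost in 2, class kept in 21), CEBPB at -0.69 (lost in 16, class kept in 7), ID2 at -1.40 (class kept in 17), KCNAB2 at -1.42 (class kept in 21), SLC6A15 at -1.67, SLC7A8 at -1.03 (lost in 7, class kept in 16), PLXNC1 at -1.61 and LUM at -1.15 (lost in 15, class kept in 6). With the change called in SkMel28 only, the interaction was more positive in MeWo for SNAR-C4 at 3.29, SNAR-E at 2.79, UCN2 at 2.30 (class kept in 20), POLD1 at 1.31 (lost in 14, class kept in 9), BIRC5 at 0.67 (lost in 14, class kept in 9), AEN at 0.89 (lost in 1, class kept in 8), ISG15 at 1.51 (lost in 9, class kept in 14), DTX3L at 0.74, CD68 at 1.52 (class kept in 22), ATP6V1E2 at 1.43, ATP6AP1 at 0.98 (lost in 1, class kept in 19), ITGA7 at 1.40 and SEMA5A at 1.68 (class kept in 20). With the change called in SkMel28 only, the interaction was more negative in MeWo for ANGPTL7 at -4.70, FGFBP2 at -3.06 (class kept in 22), MGLL at -2.66 (lost in 1, class kept in 22), FN1 at -1.78, CD44 at -1.08 (lost in 1, class kept in 22), TIPARP at -2.02 (class kept in 15), MXI1 at -1.08 (lost in 1, class kept in 22), SPRED1 at -0.98 (lost in 7, class kept in 16), GBP2 at -2.10 (lost in 3, class kept in 18), COL6A1 at -2.31, ITGA1 at -2.06 (lost in 1, class kept in 22), ITGA2 at -1.66 (lost in 16, class kept in 7), TGFBR2 at -1.95, LGR4 at -1.72, SLC1A4 at -1.33 (class kept in 21), SLC38A2 at -1.15 (lost in 1, class kept in 22), AMOTL2 at -2.59 (class kept in 22), MYOF at -1.91 (lost in 6, class kept in 17) and CRIM1 at -1.54 (lost in 8, class kept in 15). With both changes in the same direction, the interaction was more positive in MeWo for KCNN4 at 3.08 (class kept in 20), SERPINA3 at 3.06, TCN1 at 2.98 (lost in 1, class kept in 22), HLA-C at 1.30 (lost in 5, class kept in 15), ERBB3 at 1.13 (class kept in 22), ITGA4 at 2.79 (class kept in 21), SEMA3B at 1.98 (lost in 2, class kept in 21) and TIMP3 at 0.60 (lost in 4, class kept in 19). With both changes in the same direction, the interaction was more negative in MeWo for SYNM at -1.51 (class kept in 21), JUN at -1.29 (class kept in 17), MLANA at -1.10 (lost in 1, class kept in 22) and MLPH at -0.95 (lost in 1, class kept in 17). With neither change called alone, the interaction was more positive in MeWo for RRM2 at 0.63 (lost in 12, class kept in 8) and PLK3 at 1.07 (lost in 9, class kept in 13). With neither change called alone, the interaction was more negative in MeWo for NDUFA4 at -0.59 (lost in 14, class kept in 7), RPL30 at -0.69 (lost in 15, class kept in 6) and LATS2 at -1.06 (lost in 8, class kept in 10).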

How the results depend on the processing

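Of 3076 values of single named genes under the alternatives, 2670 kept their side of the threshold, 404 lost the call and 2 gained it (MITF). Among named genes with the interaction called, 0 values reversed. The interaction of MITF, negative and not called as reported, was 0.07 with spike-in scaling and again not called. In every alternative 62 of 133 named genes, and 213 of all 894, were called. ZNF114 and KCNJ10 were called in each alternative that gave an adjusted p. Against 894 calls, 468 more positive and 426 more negative, 48 opposite and 96 in genes expressed in 1 line only, library weights gave 2992, 1517, 1475, 287 and 189. Without the mean-variance trend there were 554 calls, 262 more positive, and 25 opposite. Spike-in scaling gave 1519, 1360 and 159. Calls in genes expressed in 1 line only were 2 by DESeq2, 4 by edgeR, 38 and 145 at pseudocounts of 0.1 and 5, and 60 with the stricter filter. DESeq2 gave no adjusted p for 64 of the 96. Leaving out 1 library gave 449 to 3115 calls, 234 to 1612 more positive, 215 to 1503 more negative, 26 to 327 opposite and 56 to 160 in genes expressed in 1 line only. By library, the count was 3115 without the first MeWo Dox library, 556 without the third, 449 and 488 without the second and the third MeWo controls, 475 and 493 without the first and second SkMel28 Dox libraries and 527 without either the second or the third SkMel28 control. The causes were not tested. The replicate block gave 641 calls, 36 opposite and 71 in genes expressed in 1 line only; same-numbered libraries deviated together with correlations of -0.18 to 0.16, so the numbers were not taken as pairs. Depth limits the genes expressed in 1 line only: 3 reads were worth 0.835 to 1.17.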
